A study of Mus musculus with 24 samples.

Results

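Fc gamma receptors are the cell surface receptors through which leucocytes bind the constant part of IgG. Reads from the heart were followed here for 6 genes, chosen by symbol from the 41388 Ensembl genes counted: the activating receptors Fcgr1, Fcgr3 and Fcgr4, their shared signalling chain Fcer1g, the inhibitory receptor Fcgr2b, and Fcgrt, the neonatal Fc receptor (FcRn). All 6 symbols matched 1 Ensembl identifier each, and all 6 passed the low-count filter at every time point. RNA was sequenced from part of each heart of male wild-type BALB/cAnNCrl mice (Balb/c in the labels) that were 8 to 10 weeks old when immunized, with experimental autoimmune myocarditis (EAM) and control mice at D10, D15 and D21 after the first injection and 4 hearts in each of the 6 groups. EAM mice received a cardiac myosin heavy chain peptide in supplemented complete Freund's adjuvant (SCFA) in a pair of injections, with pertussis toxin (PTX) at the first injection. Control mice received SCFA with PBS and the same PTX, so both arms carried adjuvant and toxin and differ in the peptide. Per the study's methods EAM hearts were taken by presence of inflammation where possible, which the study's flow cytometry of leucocytes did not show in D10 EAM mice, so the EAM groups are not a random draw of immunized mice.

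Activating receptors pass a signal through immunoreceptor tyrosine-based activation motifs (ITAM), which in mice sit on the gamma chain encoded by Fcer1g. The chain is needed for surface expression of the 3 activating receptors and is also used by other receptors, including the IgE receptor. Fcgr2b carries an inhibitory motif (ITIM) in its own tail and dampens ITAM signals when both are engaged by the same immune complex; it is the Fc gamma receptor of B cells and is also found on myeloid cells. Fcgr1 binds monomeric IgG with high affinity, Fcgr3 binds complexes with low affinity, and Fcgr4 binds IgG2 subclasses. FcRn works differently: it pairs with B2m inside endothelial and myeloid cells and returns IgG and albumin to the blood.

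The genes lie at 3 places in the mouse genome (build GRCm38). Fcgr2b (ENSMUSG00000026656, chr1:170958617-170976547, minus strand), Fcgr4 (ENSMUSG00000059089, chr1:171018920-171029761, plus strand), Fcgr3 (ENSMUSG00000059498, chr1:171051174-171064935, minus strand) and Fcer1g (ENSMUSG00000058715, chr1:171229572-171234365, minus strand) share 275.7 kb of chromosome 1. Fcgr1 (ENSMUSG00000015947) is at chr3:96282909-96293969 and Fcgrt (ENSMUSG00000003420) at chr7:45092990-45103851, both on the minus strand. Fcgr3 and Fcgr2b are close copies of each other over part of their length: 94 of the 1273 windows of 75 bases, the read length, in the longest coding transcript of Fcgr3 (7.38%) also occur in Fcgr2b. Reads with several mapping places were set aside before the gene counts were made, per the study's description, so such windows would add no counts to the genes that share them. Of the windows of Fcgr2b, the denominator of the ratios given further on, 246 of 3470 (7.09%) occur in 23 other genes, and 94 of them in Fcgr3. The transcripts of Fcgr1, Fcgr4, Fcer1g and Fcgrt had 0 such windows in common with another gene.

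The RefSeq promoters (build GRCm38.p6, from 150 bases before to 50 bases after the start of transcription) of the 3 activating receptors and of Fcgr2b are shown because these receptors moved together in the hearts while Fcgr4 moved further. Capitals mark GAGGAAG, a purine-rich run of the kind bound by ETS factors such as PU.1, here read on the opposite strand as CTTCCTC, and in Fcgr1 also TTCNNNGAA, the form of site that STAT factors bind.
Fcgr1, chr3:96293920-96294119, minus strand: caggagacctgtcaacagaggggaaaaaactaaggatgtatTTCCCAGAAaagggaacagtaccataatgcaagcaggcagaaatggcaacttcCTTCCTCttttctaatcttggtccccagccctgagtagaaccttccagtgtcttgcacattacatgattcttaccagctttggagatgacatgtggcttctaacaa
Fcgr3, chr1:171059354-171059553, minus strand: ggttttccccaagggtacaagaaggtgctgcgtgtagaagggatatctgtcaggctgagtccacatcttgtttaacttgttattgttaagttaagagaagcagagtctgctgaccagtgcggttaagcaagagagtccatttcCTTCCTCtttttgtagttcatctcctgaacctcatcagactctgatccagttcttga
Fcgr4, chr1:171018776-171018975, plus strand: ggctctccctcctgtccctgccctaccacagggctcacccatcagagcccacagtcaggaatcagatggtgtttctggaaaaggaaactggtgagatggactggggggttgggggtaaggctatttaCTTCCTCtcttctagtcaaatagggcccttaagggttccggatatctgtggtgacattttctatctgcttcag
Fcgr2b, chr1:170976022-170976221, minus strand: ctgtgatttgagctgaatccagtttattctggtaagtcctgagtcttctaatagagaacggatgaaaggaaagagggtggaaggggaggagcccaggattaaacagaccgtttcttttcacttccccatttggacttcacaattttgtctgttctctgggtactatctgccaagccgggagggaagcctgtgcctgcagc

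GAGGAAG, searched on both strands, occurred once in each of the 3 activating receptors, from -56 to -50 in Fcgr1, from -7 to -1 in Fcgr3 and from -23 to -17 in Fcgr4, and it was not in the same window of Fcgr2b, Fcer1g or Fcgrt. Among 27025 RefSeq promoters of the same length, 10.0% held it. Its absence is that of the exact run. Similar runs, such as cttcccc in Fcgr2b and aggaagg in Fcer1g, were present in their windows and were not counted. TTCNNNGAA, which reads the same on both strands, occurred in Fcgr1 from -109 to -101 and in 5.51% of all promoters. Both motifs were picked after the sequences had been read, and a match describes letters in a window and not binding. Fcgr3 has 2 annotated starts. The window used lies inside the gene, downstream of its upstream end at chr1:171064935.

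The libraries held between 15814863 and 24980864 counts, with a median of 19469782, and the members had at least 32 counts in every heart. Levels are given as CPM, the share of a library's counts scaled to a fixed total, after TMM normalization, and a gene was called when its false discovery rate (FDR) in edgeR's quasi-likelihood test was under 0.01 and its change 2-fold or more. The 4 D21 EAM libraries carry another library code in the labels than the other 20, so at D21 EAM and library code cannot be told apart. The heart was checked through its markers: the summed level of 8 cardiomyocyte genes lay between 8083 and 37275 CPM in all hearts, lowest in D15 EAM hearts.

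At D10 the immune receptors were higher on average in EAM hearts, but the 4 hearts differed among themselves and no member was called. Fcgr4 was at 90.4, 4.59, 16.3 and 5.86 CPM in EAM replicates 1 to 4 and at 5.77, 2.56, 5.11 and 3.11 CPM in controls. Fcgr1 was at 105, 12.8, 32.1 and 16.7 CPM in EAM hearts against 16.8, 13.1, 12.7 and 8.59 CPM in controls. Replicate 1 stood far above the others for both genes, replicate 3 was also above all controls, and replicates 2 and 4 were within the control range for Fcgr1. For Fcgr4 replicate 2 was within it and replicate 4 just above it. The log2 fold change was 2.82 ± 0.94 (SE) for Fcgr4, 1.70 ± 0.63 for Fcgr1, 1.28 ± 0.45 for Fcer1g, 1.10 ± 0.40 for Fcgr3 and 1.02 ± 0.42 for Fcgr2b, each with an FDR of 0.328 in edgeR's quasi-likelihood test. None of the 6 members was called in edgeR's quasi-likelihood test or limma-voom, where 0.0% of the 15029 genes tested were called up, or in DESeq2, where 0.319% were. With all 12 control hearts as the comparison, which adds controls of later time points, 5 were called, against 4.07% of genes. Against the D10 controls alone, 5 had an unadjusted p under 0.05 upward in edgeR's quasi-likelihood test, where 9.71% of all genes did. Without EAM replicate 1 the log2 fold change fell to 1.10 for Fcgr4 and 0.67 for Fcgr1 and Fcer1g, 0.51 for Fcgr3 and 0.44 for Fcgr2b, so this library set much of the size at D10.

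The same heart also led for leucocytes. Ptprc (CD45), the pan-leucocyte gene, was at 194 CPM in D10 EAM replicate 1 and between 27.7 and 56.7 CPM in the other D10 EAM hearts, against 23.9 to 38.6 CPM in controls. In bulk tissue, more leucocytes in a heart and more receptor RNA in each leucocyte cannot be told apart.

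At D15 every immune Fc receptor gene was far higher in EAM hearts than in controls, with no overlap, and 5 of 6 members were called up, against 18.1% of the 15693 genes tested. All 4 EAM hearts lay above all 4 controls for these 5 genes, as they did for 34.5% of all genes. Fcgr4 rose most, Fcgr2b and Fcgr1 followed, and Fcgr3 and Fcer1g rose least of the 5. Fcgrt stayed near its control level.

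**Figure D1:**
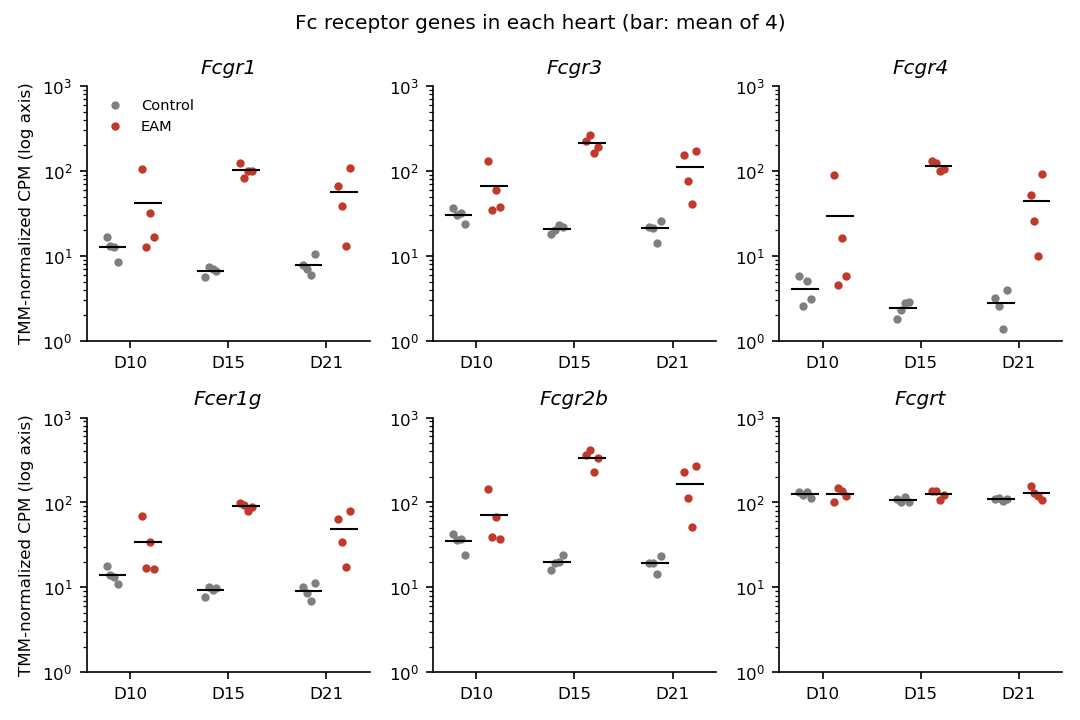
TMM-normalized CPM (log axis) of the 6 Fc receptor genes in each of 24 hearts, grey for control and red for EAM, with 4 hearts in each group and a black bar at their mean. At D15 all EAM hearts lie above all controls for Fcgr1, Fcgr3, Fcgr4, Fcer1g and Fcgr2b, at D10 replicate 1 stands above the other EAM hearts, and Fcgrt lies between 100.3 and 155 CPM throughout.

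Fcgr4 was at 130, 124, 101 and 106 CPM in the D15 EAM hearts and at 1.82, 2.30, 2.80 and 2.89 CPM in the D15 controls. The lowest EAM heart was thus far above the highest control, and the EAM hearts were close to each other. Its log2 fold change was 5.59 ± 0.15 (SE), or 48.1-fold, with an FDR of 1.3e-08 in edgeR's quasi-likelihood test. Fcgr1, the high-affinity receptor, was at 124, 83.4, 101 and 99.3 CPM against 5.68, 7.38, 7.09 and 6.71 CPM. It rose by 3.96 ± 0.14 on the log2 scale, with an edgeR FDR of 3.2e-08.

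Fcgr2b, the inhibitory receptor, was at 360, 417, 230 and 333 CPM in D15 EAM hearts and at 15.8, 19.3, 19.8 and 24.3 CPM in controls. Its log2 fold change was 4.12 ± 0.21, or 17.4-fold, with an edgeR FDR of 2.8e-07. The fold change of the inhibitory receptor thus lay below that of Fcgr4 and close to that of Fcgr1. Fcgr3, the low-affinity activating receptor, was at 227, 266, 163 and 189 CPM against 18.1, 20.2, 23.3 and 22.2 CPM. It rose by 3.37 ± 0.17 on the log2 scale, with an edgeR FDR of 2.2e-07. Fcer1g, the gamma chain, was at 99.3, 92.6, 79.6 and 87.7 CPM against 7.81, 10.2, 9.42 and 9.95 CPM, which is 9.88-fold higher with an edgeR FDR of 1.9e-08. For all 5 genes the call at D15 held when any single D15 library was left out, where 15.5% to 18.2% of all genes were called up.

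Fcgrt was the exception among the members. It was at 135, 138, 107 and 121 CPM in D15 EAM hearts and at 109, 102, 117 and 100.3 CPM in controls, with overlapping ranges. The log2 fold change of 0.26 ± 0.09, or 1.20-fold, had an edgeR FDR of 0.0283 and did not pass either limit. At D10 the value was -0.01 ± 0.12 (edgeR FDR 0.982) and at D21 0.24 ± 0.12 (edgeR FDR 0.133). B2m, the light chain that FcRn needs and that also serves all class I MHC molecules, did rise, by 1.63 ± 0.12 on the log2 scale at D15 and by 1.31 ± 0.24 at D21, with edgeR FDRs of 2.5e-06 and 0.00768.

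**Figure D2:**
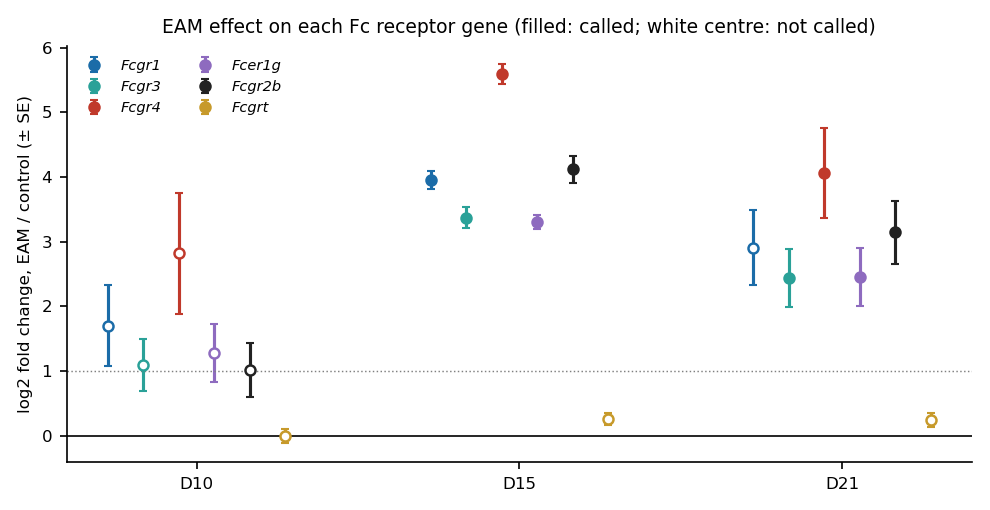
Log2 fold change of EAM over control hearts for the 6 genes at each time point (4 against 4 hearts, error bars ± SE from edgeR), with filled points for called genes, white centres for genes not called, and a dotted line at 2-fold. Fcgr4 has the highest value at each time point, 5.59 at D15, and Fcgrt stays between -0.01 and 0.26.

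At D21 the immune receptors were still higher in every EAM heart than in any control, but the EAM hearts spread widely. Fcgr2b was at 228, 112, 52.1 and 267 CPM in EAM replicates 1 to 4 and at 19.2, 19.3, 14.5 and 23.7 CPM in controls. Fcgr4 was at 52.3, 25.9, 9.95 and 91.4 CPM against 3.20, 2.54, 1.40 and 3.94 CPM. Replicate 3 was the lowest EAM heart and replicate 4 the highest for both genes, and for Ptprc the order was the same, with 48.9 CPM in replicate 3 and 228 CPM in replicate 4.

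The log2 fold change at D21 was 4.06 ± 0.69 for Fcgr4 (edgeR FDR 0.00688), 3.14 ± 0.49 for Fcgr2b (edgeR FDR 0.00607), 2.45 ± 0.45 for Fcer1g (edgeR FDR 0.00809) and 2.44 ± 0.45 for Fcgr3 (edgeR FDR 0.00829). These 4 of 6 members were called up, against 4.13% of the 15266 genes tested, and the groups did not overlap for 5 members and for 17.8% of all genes. Fcgr1 was at 67.2, 38.5, 13.2 and 110 CPM in EAM hearts against 7.73, 7.11, 6.04 and 10.5 CPM, and its log2 fold change of 2.91 ± 0.58 narrowly missed the limit with an edgeR FDR of 0.0101. With the replicate number as a block its edgeR FDR was 0.00957 with a log2 fold change of 2.58, and 5 members were called, against 3.94% of genes. In DESeq2 and in edgeR's likelihood ratio test 5 members were also called, against 8.93% and 8.88% of genes. The calls at D21 rest on all libraries, as they do over all genes: without any one of the 4 controls or of EAM replicates 1 and 2, 0 members were called, without EAM replicate 4 there were 2 and without EAM replicate 3 there were 5, with log2 fold changes from 2.10 for Fcer1g to 4.38 for Fcgr4 over these fits. The share of all genes called up in these fits was 0.0% without any one control, 0.0265% and 0.053% without EAM replicates 1 and 2, 1.98% without replicate 4 and 9.78% without replicate 3. In limma-voom 0 members were called at D21, against 0.524% of genes.

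The size of the EAM effect was compared between time points in a fit of all 24 hearts. From D10 to D15 the effect grew by 3.05 ± 0.59 on the log2 scale for Fcgr2b (edgeR FDR 0.00186), by 2.23 ± 0.55 for Fcgr3 (edgeR FDR 0.00400) and by 1.97 ± 0.57 for Fcer1g (edgeR FDR 0.00898), so 3 of 6 members were called against 5.38% of 16318 genes. Fcgr4, at 2.72 ± 1.05 (edgeR FDR 0.0401), and Fcgr1, at 2.21 ± 0.77 (edgeR FDR 0.0239), did not pass. Without D10 EAM replicate 1 these values became 4.45 and 3.24 and 5 members were called, against 12.3% of genes in that fit, and without any one of 14 of the 16 libraries of D10 and D15, that one and D15 EAM replicate 3 excepted, Fcer1g was lost and 2 members were called, against 2.98% to 5.29% of genes. From D15 to D21 the effect was between 0.85 and 1.52 lower on the log2 scale for the 5 immune genes, with edgeR FDRs of 0.206 to 0.305, and 0 members were called, against 0.919% of genes in that direction in edgeR. In edgeR 0 members had an unadjusted p under 0.05 downward, where 17.3% of genes did, and DESeq2 and limma-voom called 0 members, against 1.56% and 0.919% of genes.

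Control hearts at the 3 time points were compared in the same way. Fcgr2b was between 24.1 and 43.0 CPM in D10 controls and between 14.5 and 24.3 CPM in D15 and D21 controls, a log2 difference of -0.88 from D10 to D21 with an edgeR FDR of 0.399. The 5 immune genes were between 0.54 and 0.93 lower on the log2 scale at D15 or D21 than at D10, and 0 members were called from D10 to D15, from D10 to D21 or from D15 to D21, against 0.0919%, 0.214% and 0.0% of all genes in edgeR. DESeq2 and limma-voom also called 0 members, against 0.319%, 0.778% and 0.0% of genes in DESeq2 and 0.0% in limma-voom. Fcgr2b from D10 to D21 was the one member at an unadjusted p under 0.05, downward, where 4.68% of genes were. Some leucocyte markers moved alongside: the summed level of 8 neutrophil genes was 139 to 261 CPM in D10 controls and 14.1 to 104 CPM in later controls. For 12 monocyte and macrophage genes the median sum was 869 CPM in D10 controls, against 626 at D15 and 698 at D21, with overlapping ranges. Ptprc averaged 31.2 CPM in D10 controls, against 18.0 at D15 and 22.4 at D21. The T cell median was also highest at D10, while those of B, NK, dendritic and mast cell genes were not. The part of these cells in the D10 receptor level was not tested.

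Activating and inhibitory receptors were then set against each other within each heart, as the log2 ratio of each activating gene's count to the Fcgr2b count, which needs no library scaling. Relative to Fcgr2b, Fcgr4 was higher in EAM hearts at D15 and D21 and Fcgr3 and Fcer1g were lower, although none of these ratios passed after adjustment. At D15 there were 36.0, 29.7, 43.8 and 31.7 Fcgr4 counts per 100 Fcgr2b counts in EAM hearts and 11.7 to 14.2 in controls. The EAM hearts were all above the controls, with a log2 difference of 1.49 ± 0.14 (SE), or 2.81-fold, and an exact permutation p of 0.0286. For Fcgr3 there were 63.1, 63.9, 71.0 and 56.7 counts per 100 Fcgr2b counts in EAM hearts and 114, 105, 117 and 91.5 in controls, so all EAM hearts were below all controls. The log2 difference was -0.75 ± 0.10 for Fcgr3 and -0.80 ± 0.15 for Fcer1g, each with an exact permutation p of 0.0286. Fcgr2b itself rose 17.4-fold at D15 and 8.83-fold at D21, so ratios to it fall for any gene that rose less. The share of all genes whose ratios did not overlap was not counted.

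At D21 the same directions held with smaller differences for Fcgr4. The log2 difference was 0.81 ± 0.25 for Fcgr4, -0.65 ± 0.07 for Fcgr3 and -0.66 ± 0.07 for Fcer1g, each again without overlap and with an exact permutation p of 0.0286. The ratio of Fcgr1 to Fcgr2b overlapped between the groups and differed by -0.15 ± 0.26 at D15 (exact permutation p = 0.629) and by -0.35 ± 0.16 at D21 (exact permutation p = 0.0857). At D10 the ratios overlapped for all 4 genes and differed by 1.01 ± 0.58 for Fcgr4 and by 0.07 to 0.39 for the others, with exact permutation p-values of 0.114 to 0.314. Without EAM replicate 1 the Fcgr4 ratio differed by 0.52 and the Fcgr1 ratio by 0.18.

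These are two-sided tests of 12 ratios, and 0.0286 is the smallest p that 4 against 4 hearts allow. With 6 ratios at that minimum the Benjamini-Hochberg adjusted exact p is 0.0571, so none of the 12 ratios passed the threshold of 0.05. limma, fitted to the ratios of all genes to Fcgr2b, gave adjusted p-values of 1.5e-05 for Fcgr4, 0.00783 for Fcgr3 and 0.00618 for Fcer1g at D15 and none under 0.05 at D21. Fcgr2b itself rose by 4.12 on the log2 scale at D15, where the median over all genes was 0.016, so most of these ratios fall. The share of all ratios that passed was not counted, and adjustment over them may change the p-values little.

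**Figure D3:**
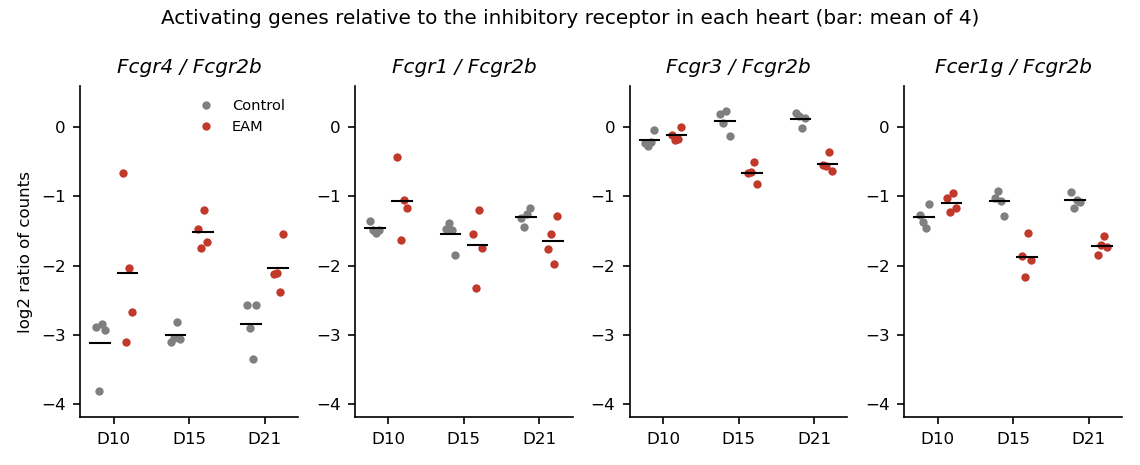
Log2 ratio of the counts of Fcgr4, Fcgr1, Fcgr3 and Fcer1g to those of Fcgr2b in each heart, grey for control and red for EAM, with 4 hearts in each group and a black bar at their mean. At D15 and D21 the EAM hearts lie above the controls for Fcgr4 and below them for Fcgr3 and Fcer1g, and the groups overlap for Fcgr1.

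Levels of different genes are compared per kilobase (kb) of the longest coding transcript. In D15 control hearts Fcgrt led with 60.5 ± 4.3 CPM per kb (SD, n = 4), followed by Fcgr3 at 15.5 ± 1.7, Fcer1g at 13.7 ± 1.6, Fcgr2b at 5.59 ± 0.98, Fcgr1 at 2.59 ± 0.29 and Fcgr4 at 1.95 ± 0.39. Fcgr3 and Fcer1g, and likewise Fcgr1 and Fcgr4, differed by less than the sum of their SDs. In D15 EAM hearts Fcgr3 led with 157 ± 33 CPM per kb, followed by Fcer1g at 131 ± 12, Fcgr2b at 94.5 ± 22.1, Fcgr4 at 91.5 ± 11.1, Fcgrt at 70.7 ± 7.9 and Fcgr1 at 39.3 ± 6.4. Fcgr3 and Fcer1g, Fcgr2b and Fcgr4, and Fcgr2b and Fcgrt differed by less than the sum of their SDs. The place of Fcgr2b relative to Fcgr4 and Fcgrt is therefore not firm, and it also depends on the length used: over all its annotated exons Fcgr2b was at 57.8 ± 13.5 CPM per kb in D15 EAM hearts, below Fcgr4 and near Fcgrt at 59.5 ± 6.7.

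The make-up of the activating receptors was described with the same per-kb levels and was not tested. Of the summed per-kb level of Fcgr1, Fcgr3 and Fcgr4, Fcgr4 held 8.51% to 10.7% in the D15 controls and 30.0% to 33.4% in the D15 EAM hearts. Fcgr3 held 76.2% to 78.6% in these controls and 50.4% to 60.2% in the EAM hearts, while Fcgr1 held 12.1% to 14.5% and 9.81% to 16.2%. At D21 the Fcgr4 share was 7.91% to 11.8% in controls and 18.4% to 29.8% in EAM hearts, and at D10 it reached 34.2% in EAM replicate 1. The sum of the 3 activating receptors was 3.12 to 3.98 times the Fcgr2b level in D15 controls and 2.79 to 3.70 times in D15 EAM hearts, so these ranges overlapped, while at D21 it was 3.45 to 4.07 times in controls and 2.85 to 3.23 times in EAM hearts, without overlap. At D10 it ran the other way, with 2.87 to 3.43 times and a mean of 3.15 in controls and up to 5.23 times and a mean of 3.93 in EAM hearts, with overlapping ranges.

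**Figure D4:**
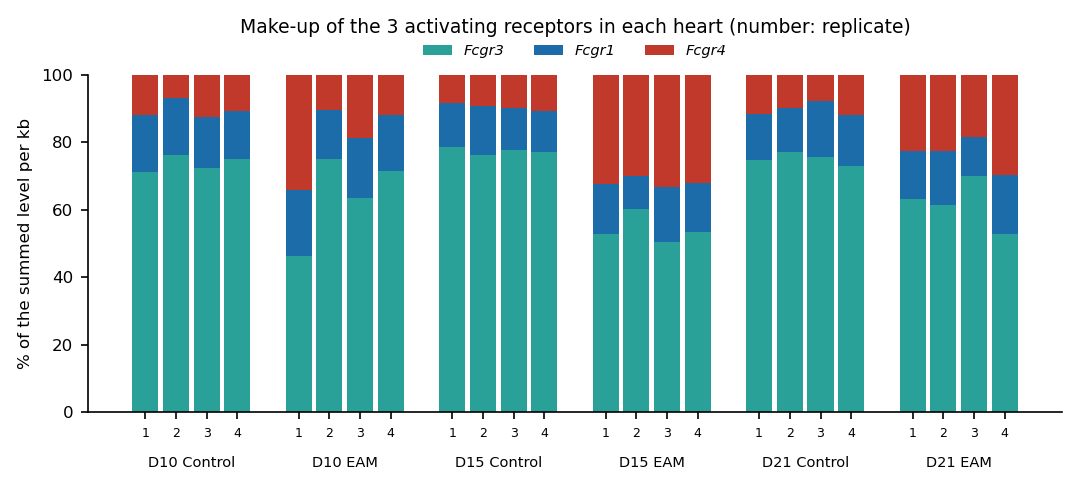
Share (%) of Fcgr3, Fcgr1 and Fcgr4 in the summed CPM per kb of these 3 activating receptors, 1 stacked bar for each of 24 hearts with its replicate number. At D15 Fcgr4 holds 8.51% to 10.7% in controls against 30.0% to 33.4% in EAM, and it holds 34.2% in D10 EAM replicate 1.

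The genes whose pattern over the 24 hearts was most like that of each member were found by the SD of their log2 ratio to it, among 14217 genes. Fcgr3 and Fcer1g followed each other more closely than any other pair of members, with an SD of 0.148. The 3 nearest genes other than members were Ptpn6, a phosphatase of ITIM receptors, Ctsc and Lcp2 for Fcgr1, and Dok3, Laptm5 and Kcnab2 for Fcgr3. They were Kcnab2, Arhgdib and Dok3 for Fcer1g, Pla2g7, Vav1 and Cd53 for Fcgr2b, and Arg2, Mefv and Itgb2 for Fcgr4. The SD was 0.170 for Ptpn6 to Fcgr1, 0.153 for Dok3 to Fcgr3 and 0.298 for Arg2 to Fcgr4, where the median over all genes was 1.60, 1.37 and 2.22. For Fcgrt they were Itm2b, Sil1 and Tex264. These are descriptions, since all genes were read in the same 24 libraries and differ together with the leucocyte content of the hearts.

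Genes that act below the receptors were read from the same fits. Of 23 genes of ITAM signalling, 17 were called up at D15 and 14 at D21, with a median log2 fold change of 3.17 and 2.15 against 0.016 and -0.0064 over all genes. Over all genes 18.1% were called up at D15 and 4.13% at D21, which is the background for each list that follows. Prkcd, a protein kinase C, rose by 3.17 ± 0.09 at D15, and Syk, the kinase that docks on phosphorylated ITAM, rose by 2.26 ± 0.10, from 44.1 ± 3.6 to 206 ± 23 CPM (SD, n = 4). Rac1 and Pik3r1, which most cells express, were at 0.44 ± 0.07 and -0.12 ± 0.17 on the log2 scale and were not called. Of 10 genes of ITIM signalling, 8 were called up at D15 and 3 at D21, with medians of 2.53 and 1.37. Ptpn6 (SHP-1) rose by 3.90 ± 0.08 and Csk by 1.42 ± 0.07 at D15, whereas Ptpn11 (SHP-2) was at -0.78 ± 0.13 and Inppl1 (SHIP2) at -0.36 ± 0.07 and neither was called.

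All 12 tested genes of other ITAM adaptors and their partners were called up at D15 and 9 of 12 at D21, with medians of 4.77 and 3.49. Clec4e (Mincle), which signals through Fcer1g, rose from 0.684 ± 0.447 to 119 ± 13 CPM at D15 (SD, n = 4), a log2 fold change of 7.51 ± 0.28. Tyrobp (DAP12), the other ITAM adaptor of myeloid cells, rose by 3.57 ± 0.12. Of 11 other ITIM receptors, 9 were called up at D15 and 7 at D21, with medians of 3.06 and 2.22. Among them Clec12a rose by 5.01 ± 0.18, Pirb by 4.08 ± 0.16 and Sirpa, the receptor of CD47, by 2.92 ± 0.16 at D15, while Pecam1, an endothelial gene, was at -0.30 ± 0.07 and not called.

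At D10, 0 genes of any of these lists were called in edgeR's quasi-likelihood test, while 13 of 23 ITAM signalling genes and 4 of 10 ITIM signalling genes had an unadjusted p under 0.05 upward, where 9.71% of all genes did. With all 12 control hearts as the comparison, 12 of the ITAM signalling genes, 3 of the ITIM signalling genes, 8 of the other ITAM adaptors and 4 of the other ITIM receptors were called up at D10, against 4.07% of all genes. That comparison adds controls of later time points and so mixes time point with EAM. The D21 list counts hang on single libraries as the members do: ITAM signalling genes called numbered 0 without any one D21 control or EAM replicate 1 or 2, 8 without EAM replicate 4 and 15 without EAM replicate 3, and ITIM signalling genes 0, 3 and 6 in the same order.

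Transcripts of antibodies, the ligands, were called at D15 and D21. Of 6 immunoglobulin constant genes tested, 6 were called up at D15 and 5 at D21, with medians of 5.10 and 6.42. Ighg1, the IgG1 heavy chain, had 0 to 12 counts in every control heart and in D10 EAM hearts, 55 to 1095 counts in D15 EAM hearts and 128 to 1014 counts in D21 EAM hearts. Igha rose from 0.281 ± 0.087 CPM in D21 controls to 31.1 ± 27.6 CPM in D21 EAM hearts (SD, n = 4). Of the B cell markers, 1 of 5 tested was called up at D15, Cd79b at 1.68 ± 0.48, and 0 of 2 at D21 with 1 at an unadjusted p under 0.05 upward, where 25.2% of all genes were. The IgG heavy chain genes are near copies of each other, so the split between subclasses is uncertain.

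Among other immunoglobulin receptors, 5 of 8 tested genes were called up and 1 down at D15, and 1 up and 1 down of 4 at D21. Fcrlb, an intracellular Fc receptor-like protein, had 0 to 2 counts in D15 controls and 164 to 604 counts in D15 EAM hearts. Trim21, the cytosolic antibody receptor, rose by 1.22 ± 0.13. Fcrls, a receptor-like gene of resident macrophages, fell by 1.75 on the log2 scale, from 16.3 ± 1.4 to 4.77 ± 2.47 CPM. Fcamr, a receptor for IgA and IgM, had 22 to 43 counts in D21 controls and 0 counts in all 4 D21 EAM hearts, the libraries with the other code, which allows up to 3 counts in each.

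Cytokine receptors, cytokines and transcription factors known to regulate Fc gamma receptors were a further list. Of 12 tested at D15, 8 were called up, with a median of 2.56, and 3 of 11 at D21 with a median of 1.24. Il4ra, the interleukin 4 receptor, rose by 2.84 ± 0.11 at D15. The interferon gamma receptor chains differed, with Ifngr1 at 0.85 ± 0.10 and Ifngr2 at -0.73 ± 0.08 on the log2 scale at D15, both under the 2-fold limit, as was Stat6 at 0.87 ± 0.06.

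Marker genes of several leucocyte types were higher in the same hearts, while few B cell and no mast cell markers were called up. At D15, 12 monocyte and macrophage genes summed to 585 to 659 CPM in controls and to 3601 to 5053 CPM in EAM hearts, and 10 of 12 were called up at D15 and 5 at D21. For 8 neutrophil genes it was 18.4 to 87.2 CPM against 637 to 1083 CPM, with 8 called at D15 and 1 at D21. For 7 NK cell genes it was 1.55 to 2.89 CPM against 31.8 to 63.3 CPM, with 7 of 7 called at D15 and 5 of 6 at D21. T cell markers were called in 7 of 7 cases on both days, and dendritic cell markers in 4 of 7 on each day, with Xcr1 called at D15 and not at D21 (edgeR FDR 0.0112) and Zbtb46 at -0.76 ± 0.11 on the log2 scale at D15 and not called. Mast cell markers, which could carry Fcer1g with the IgE receptor, summed to 17.0 to 22.8 CPM in D15 controls and 23.0 to 28.0 CPM in D15 EAM hearts with 0 of 5 called, and at D21 Mcpt4 was called down.

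Of 8 cardiomyocyte genes 5 were called down at D15, against 12.9% of all genes, and their sum was 30226 to 34979 CPM in controls and 8083 to 20843 CPM in EAM hearts. Endothelial genes, of the cells in which FcRn is best known, summed to 1247 to 1599 CPM in D15 controls and 872 to 982 CPM in D15 EAM hearts, with 1 of 8, Kdr, called down, a share near that of all genes. All 8 were lower at an unadjusted p under 0.05 in edgeR's quasi-likelihood test, where 37.3% of all genes were. Their median log2 fold change was -0.62. No marker list had a gene at 0 in every heart of a group. The part of cell numbers in the receptor levels was not tested.

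The members were also set against Ptprc within each heart. The mean log2 ratio of Fcgr4 to Ptprc counts was -2.88 in D15 controls and -1.27 in D15 EAM hearts, with ranges of -3.19 to -2.66 and -1.50 to -1.05. At D21 Fcgr4 was also higher without overlap, at -3.40 to -2.85 in controls and -2.29 to -1.32 in EAM hearts. For Fcgr1 the D15 means were -1.42 and -1.45 and for Fcgr2b 0.13 and 0.25, with overlapping ranges. At D21 the ranges again overlapped for Fcgr1, and Fcgr2b was higher without overlap, at -0.48 to 0.06 in controls and 0.09 to 0.61 in EAM hearts. For Fcgr3 the D15 ranges were 0.10 to 0.39 in controls and -0.66 to 0.06 in EAM hearts, without overlap, and the D21 ranges overlapped. At D15, for Fcer1g it was -0.94 in controls and -1.62 in EAM hearts, with ranges of -1.10 to -0.69 and -1.77 to -1.47 that did not overlap, while at D21 they did. The mean for Fcgrt was 2.58 in D15 controls and -1.14 in D15 EAM hearts, and at D10 the ranges of the groups overlapped for Fcgr1, Fcgr3, Fcgr4, Fcer1g, Fcgr2b and Fcgrt. Ptprc itself rose by 3.98 on the log2 scale at D15 and by 2.58 at D21, so ratios to it fall for genes that rose less. The share of all genes whose ratios to Ptprc did not overlap was not counted. These ratios were not tested.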

How the data were processed

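RNA from 24 mouse hearts was sequenced. Per the labels and the study's methods, the authors aligned reads to GRCm38 with HISAT2 2.0.4, removed duplicates with Picard and deposited raw gene counts from featureCounts. The study names a directional library kit, but the sources used here do not give the strand setting of the counting. Whether reads of the antisense gene Gm38204 across Fcgr2b exons were counted for Fcgr2b is therefore not known. Sample files and the series table differed in 0 cells, and no replicates agreed within sampling noise. 92 spike-in features held 0 reads and were left out.

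Genes reaching 10 reads in 4 or more libraries were kept, and each time point was fitted with TMM and edgeR 4.0.16's quasi-likelihood test in R 4.3.3, with Benjamini-Hochberg adjustment over all genes. Changes of effect and control time points were contrasts of 1 fit of 24 hearts. Ratios to Fcgr2b used counts plus 0.5 and an exact permutation test (70 arrangements, scipy 1.17.1). Alternatives used DESeq2 1.42.0 and limma 3.58.1. The fits were tested on simulated data. Per the study's methods each replicate is a separate mouse, but what the numbers stand for is not stated in the labels. A count of 0 allows up to 3 counts, or 0.120 to 0.190 CPM, for counting error only.

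Members and gene lists were chosen with earlier results of these data known. Named genes are the 6 members, Ptprc, the 4 genes of each list with the highest mean CPM, list genes called against their list's direction, and the 3 genes most like each member (mean of at least 1 CPM).

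Deviations from the group means of hearts with the same replicate number correlated between 0.104 and 0.313 at D21, over 0.1 in 4 of 4 pairs, in 2 of 4 at D10 and in 0 of 4 at D15, over the genes kept on that day. Over the genes kept in all 24 libraries 1 D21 pair was at 0.0956. Only at D21 were the numbers treated as pairing the hearts, on this narrow margin and after the data, including the blocked values, had been seen. The D21 pairs join libraries of different codes, and 2 D10 pairs, at 0.380 and 0.406, were above every D21 pair. The tests are unpaired; blocked values accompany those D21 results whose call they alter.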

Additional observations from a re-analysis of the deposited data

Results flagged for a closer look

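Fcgr4 in D10 EAM replicate 1, at 90.4 CPM, stood apart from the other 3 hearts of its group, with a gap of 0.864 of the group's range. The log2 ratio of Fcgr4 to Fcgr2b in D10 control replicate 2, at -3.82, lay below the other 3 controls with a gap of 0.901 of the range, and it rests on the low Fcgr4 level of that heart. Dixon's test at the 95% level marked both, chance alone marks about 1 in 20 groups, and 2 of the 60 groups examined were marked.

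The EAM effect differed between D10 and D15 for Fcgr2b by 3.05, for Fcgr3 by 2.23 and for Fcer1g by 1.97 on the log2 scale, each larger at D15 in edgeR's test of the difference itself. The cause was not tested.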

How the results depend on the processing

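Left-out libraries are given as ranges. At D15 5 members were called under every alternative, against 12.3% (no low-count filter) to 33.2% (no fold limit) of all genes called up. At D10 5 were called with all 12 control hearts as the comparison, against 4.07% of all genes, and 0 under the other alternatives, against 0.0% to 0.319%. The 12 controls mix time point with EAM at D10. In later controls the 5 immune genes were 0.54 to 0.93 lower on the log2 scale than in D10 controls. At D21 0 were called with limma-voom (0.524% of genes) and 0 to 5 without single libraries (0.0% to 9.78%). Fcgr1 was added as the fifth in DESeq2 (adjusted p 9.8e-07; 8.93% of genes), the likelihood ratio test (7.8e-06; 8.88%), all 12 controls (9.2e-06; 10.1%), no low-count filter (0.00656; 3.54%), the newer quasi-likelihood form (0.00981; 4.3%), the replicate block (0.00957; 3.94%) and an FDR under 0.05 (9.3%). For the effect from D10 to D15, 5 were called at an FDR under 0.05 (9.8% of genes) and 5 with the replicate block (7.89%). DESeq2 (8.06%) and the likelihood ratio test (7.65%) called 4, adding Fcgr1, limma-voom (5.06%) and no low-count filter (2.84%) called 2, losing Fcer1g (adjusted p 0.0114 in both), and 2 to 5 were called without single libraries (2.98% to 12.3%). At D15 and D10 the numbers are not taken as pairs, and the replicate block left 5 and 0 calls there, against 17.7% and 0.00665% of genes.

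Ratios passed the adjusted threshold with all 12 control hearts, at D15 with -0.67 for Fcgr3, 1.48 for Fcgr4 and -0.73 for Fcer1g and at D21 with -0.53, 0.95 and -0.57, and at D15 in limma, with or without the replicate block, at -0.75, 1.49 and -0.80. The 12 controls mix time points, and the limma adjustment ran over ratios of all genes, most of which fall as Fcgr2b rises. At D21 limma passed none, and exact sign flips over 4 pairs cannot go below 0.125. The Fcgr3 ratio at D10 turned to -0.12 with all 12 controls. Without single libraries the Fcgr1 ratio at D15 ranged from -0.32 to 0.05 and the other ratios kept their direction, although at D10 they ranged from 0.52 to 1.34 for Fcgr4, 0.18 to 0.58 for Fcgr1, 0.031 to 0.12 for Fcgr3 and 0.16 to 0.27 for Fcer1g.

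Values near 0 changed sign. The log2 fold change of Fcgrt at D10 was 0.00475 in DESeq2, 0.00500 with its size factors, 0.0407 by total counts, 0.00350 without a filter, 0.15 with 12 controls and -0.080 to 0.089 without single libraries. Its effect from D15 to D21 ranged from -0.11 to 0.077. From D15 to D21 in controls, Fcgr3 was -0.00752 in DESeq2, -0.0287 in limma-voom, -0.00849 with DESeq2 size factors and -0.0398 with the replicate block. Fcer1g was 0.00139 by total counts. Without single libraries these ranged from -0.11 to 0.15 for Fcgr3, -0.050 to 0.40 for Fcgr4, -0.13 to 0.087 for Fcer1g and -0.17 to 0.064 for Fcgr2b. The cause of these changes was not tested. With 32 to 77 counts in D21 controls, Fcgr4 is the member that depth limits most.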
